A study of Mus musculus with 12 samples.

Results

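Broad H3K4me3 domains are unusually long stretches of chromatin that carry trimethylated lysine 4 of histone H3. Here a domain was a stretch of at least 4000 bases, on chromosomes 1 to 19, covered by a deposited H3K4me3 peak in at least 2 of 3 libraries. This rule found 465 domains among 15019 H3K4me3 regions made in the same way, or 3.10% of them. The domains were selected on the extent of the deposited H3K4me3 peaks, so their lengths and their H3K4me3 values below are descriptions and carry no test. All libraries came from wild-type C57Bl6 mouse lungs at embryonic stage E17.5, with no treatment, knockout or transgene in any group. Lungs of several fetuses were pooled, epithelial cells were captured with magnetic beads against EpCAM, and 100000 cells went into each reaction. The chromatin was profiled by CUT&RUN, in which an antibody guides a nuclease to cut out the DNA beside its target. Peak lists for H3K4me3 (3 libraries), NKX2-1 (3), PRDM16 (2, with a rabbit and a sheep antibody) and PRDM3 (1) were used. The labels do not say whether libraries came from separate pools of lungs, and p-values below reflect only how far these libraries, which may be technical repeats, scatter.

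H3K4me3 is placed by SET1 and MLL methyltransferases at the starts of active genes, usually as a short peak over the promoter and the first nucleosomes of the gene. Domains that run far into the gene are known from many cell types, where they often lie at genes that set the identity of the cell. NKX2-1, a homeodomain transcription factor, gives the lung epithelium its identity, and PRDM16 and PRDM3 (the product of Mecom) are related zinc-finger chromatin regulators. At this age the distal epithelium is forming alveolar type 1 (AT1) cells, the flat cells of gas exchange, and type 2 (AT2) cells, which make surfactant.

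The 250 bases before the annotated start of 4 transcription factor genes inside broad domains are shown first. They were chosen because these genes carry the domains described most fully below. CpG dinucleotides are in capitals. The sequences are from RefSeq (GRCm38.p6, the assembly of mm10), read 5′ to 3′ on the strand of the gene.
Nkx2-1 (chr12:56536909-56537158, minus strand): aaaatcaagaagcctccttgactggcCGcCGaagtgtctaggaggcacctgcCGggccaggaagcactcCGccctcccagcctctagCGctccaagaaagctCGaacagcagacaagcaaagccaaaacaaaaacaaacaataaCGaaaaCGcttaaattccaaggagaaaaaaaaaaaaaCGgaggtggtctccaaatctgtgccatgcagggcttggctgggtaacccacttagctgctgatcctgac
Foxa2 (chr2:148046970-148047219, minus strand): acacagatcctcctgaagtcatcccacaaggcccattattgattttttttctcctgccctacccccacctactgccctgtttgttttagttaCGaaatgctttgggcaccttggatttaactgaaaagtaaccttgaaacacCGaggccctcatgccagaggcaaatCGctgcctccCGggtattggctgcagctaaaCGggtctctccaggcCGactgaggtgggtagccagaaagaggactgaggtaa
Irx3 (chr8:91801655-91801904, minus strand): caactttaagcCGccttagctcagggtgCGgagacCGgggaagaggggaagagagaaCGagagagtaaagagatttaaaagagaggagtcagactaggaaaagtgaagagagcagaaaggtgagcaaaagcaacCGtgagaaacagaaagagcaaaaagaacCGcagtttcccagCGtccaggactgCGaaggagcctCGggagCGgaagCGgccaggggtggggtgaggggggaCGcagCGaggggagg
Mecom (chr3:30509760-30510009, minus strand): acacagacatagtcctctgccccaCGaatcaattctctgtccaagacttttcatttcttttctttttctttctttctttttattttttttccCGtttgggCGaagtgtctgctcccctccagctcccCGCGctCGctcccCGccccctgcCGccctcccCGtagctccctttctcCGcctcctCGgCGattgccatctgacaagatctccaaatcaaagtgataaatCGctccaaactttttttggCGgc
These windows held 9 CpG for Nkx2-1, 6 for Foxa2, 13 for Irx3 and 14 for Mecom. The 60 bases before the start of 4 further genes in broad domains are shown because a TATA box, the letters TATAAA, stands there at a distance typical of such boxes. The box is in capitals.
Muc1 (chr3:89228996-89229055, plus strand): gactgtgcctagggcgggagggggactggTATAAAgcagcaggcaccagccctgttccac
Zfp36l1 (chr12:80113014-80113073, minus strand): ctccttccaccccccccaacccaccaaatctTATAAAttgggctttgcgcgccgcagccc
Cebpa (chr7:35119233-35119292, plus strand): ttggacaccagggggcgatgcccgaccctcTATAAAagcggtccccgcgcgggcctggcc
Fos (chr12:85473830-85473889, plus strand): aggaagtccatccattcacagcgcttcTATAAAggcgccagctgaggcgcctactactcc
Counted from the start, the first base of the box stood at −31 for Muc1, −29 for Zfp36l1, −30 for Cebpa and −33 for Fos.

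The lists differed in strength. Stringent peaks, those with a deposited −log10 q no lower than 5, numbered 12708, 661 and 1170 for the NKX2-1 libraries on chromosomes 1 to 19. They numbered 19242 and 11395 for PRDM16, 4801 for PRDM3, and 13950 to 17330 for H3K4me3. The deposited peak names carry either of 2 letters, which were treated as a possible batch. A first series of libraries comprised both PRDM16 libraries, PRDM3, and replicate 1 of H3K4me3 and of NKX2-1. The other replicates formed a second series. Series and strength of NKX2-1 libraries cannot be told apart. Peak lists do not give read depth, so it is unknown here. As a check of the sorted cells, an H3K4me3 region lay at 5 of 5 epithelial markers (Epcam, Cdh1, Krt8, Krt18 and Nkx2-1). It lay at 1 of 3 endothelial (Kdr), 1 of 3 blood and immune (Spi1) and 1 of 3 mesenchymal markers (Col1a1). No region lay at Pecam1, Cdh5, Ptprc, Cd68, Col3a1 or Pdgfra, and the single marker at a broad domain was Nkx2-1.

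Broad domains had a median length of 4748 bases, against 1401 for the 14554 other H3K4me3 regions. They covered 2433 of 23967 kb of H3K4me3 regions, or 10.2% of the marked bases. Of the 465 domains, 74 reached 6000 bases, 26 reached 8000 and 10 reached 10000. In 383 domains each of the 3 libraries had exactly 1 peak, so most domains were not strings of small peaks. All 3 libraries covered at least 4000 bases in 358 domains. A peak of that length was present in 446, 445 and 358 domains for replicates 1, 2 and 3. Replicate 3 was the library that most often fell short. The median of the highest H3K4me3 fold enrichment, the authors' ratio of signal to background, was 24.4, 62.6 and 49.6 in the domains of the 3 libraries. It was 22.4, 51.1 and 41.2 in the 3696 mid-length regions, those of at least 2000 but under 4000 bases, and 16.9, 30.4 and 26.7 over all other regions. The median height thus rose from class to class with length in each library, although the scale of the values differed between libraries. These medians compare classes of regions and do not rank single domains. At the threshold the set has no natural edge. The domains just inside it lay at Tent5a (4008 bases), Spaca6 (4005), Ptprm (4005) and Mat2b (4004). The regions just outside it lay at Arhgap27 and Plekhm1 (1 base short of the threshold), Atp5b and Baz2a (3998), Acoxl and Bcl2l11 (3997), and Stk11 (3987).

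**Figure D1:**
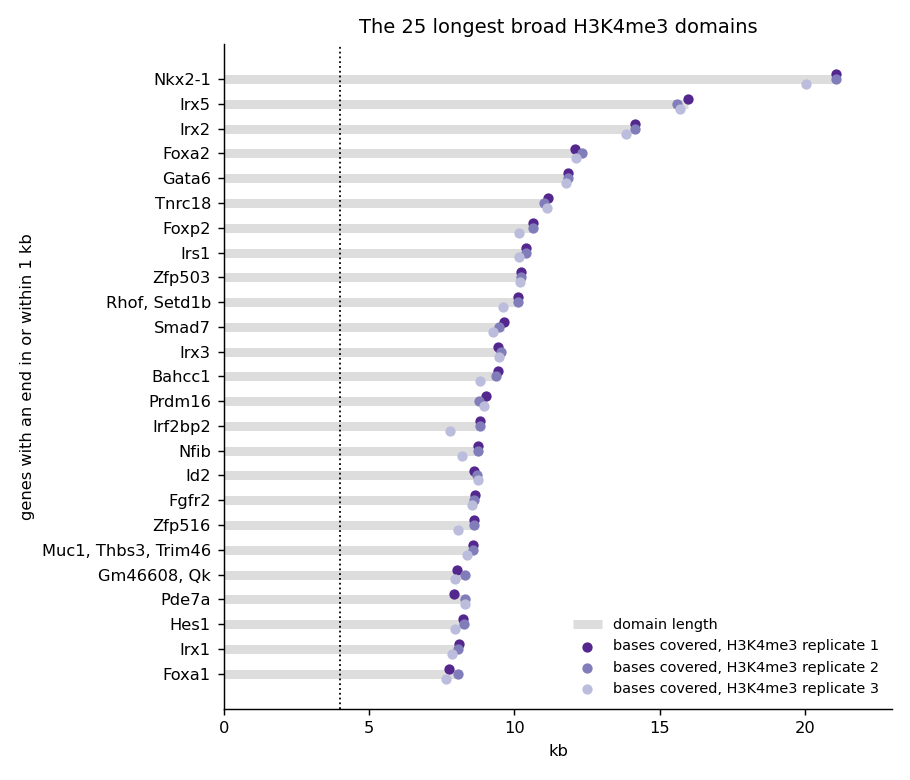
The 25 longest broad H3K4me3 domains, named by the protein-coding genes with an end in or within 1 kb. Grey bars give the domain length and points the bases of the domain covered by peaks of each H3K4me3 library, in kb; the dotted line marks 4 kb, and all points lie well beyond it, with Nkx2-1 longest at 21051 bases.

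The longest domain, of 21051 bases, lay at Nkx2-1 itself (chromosome 12, 56518121 to 56539171, mm10). It was covered over 21051, 21051 and 20023 bases in H3K4me3 replicates 1, 2 and 3, by a single peak in each. It ran from −2.26 kb, upstream of the annotated start, to 18.8 kb downstream, far past the 4.97 kb gene body and into Sfta3-ps, a neighbouring pseudogene of a surfactant-associated gene. The highest H3K4me3 fold was 12.5 in replicate 1, with its summit 0.076 kb downstream of the start. It was 70.5 and 64.6 in replicates 2 and 3, with summits 8.52 and 8.58 kb downstream. The tallest point of the mark therefore lay at different places in replicate 1 and in replicates 2 and 3. The NKX2-1 libraries had 7, 9 and 7 peaks inside this domain, the PRDM16 libraries 8 and 8, and the PRDM3 library 13, more than PRDM3 had in any other broad domain. The highest NKX2-1 folds were 5.76, 4.88 and 5.59, those of PRDM16 6.91 and 5.31, and that of PRDM3 5.67. Peaks lay over the start and the gene and in several clusters downstream of it. Many were weak: in NKX2-1 replicate 1 the peaks at 1.32 and 18.1 kb had folds of 5.70 and 5.76, and the peak at 11.7 kb had 2.98. The highest −log10 q here was 5.20, 2.69 and 3.85 in the NKX2-1 libraries, 7.42 and 4.70 in PRDM16 and 4.56 in PRDM3. Only NKX2-1 replicate 1 and PRDM16 replicate 1 thus had stringent peaks in this domain. In NKX2-1 replicate 2 the lowest −log10 q was 0.06, so the counts include very weak calls.

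**Figure D2:**
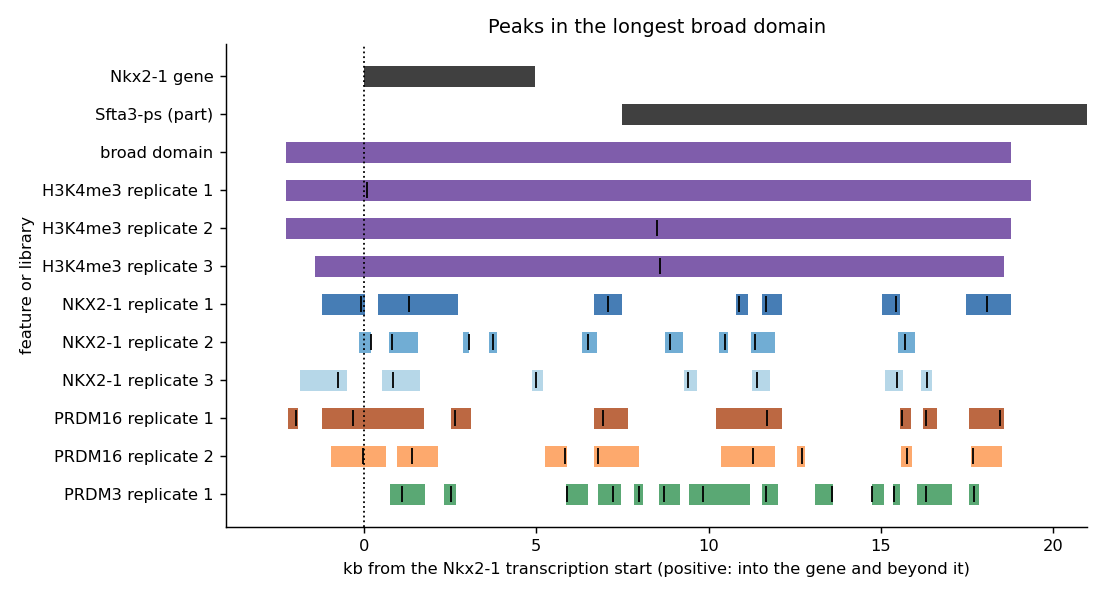
Peaks in the longest broad domain, drawn in kb from the Nkx2-1 transcription start along the gene's direction. Bars are the gene, the neighbouring Sfta3-ps, the domain and the peaks of each library, and black ticks are peak summits; H3K4me3 peaks of all 3 libraries run at least from −1.43 kb to 18.6 kb, while factor peaks form separate short intervals.

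Transcription factor genes led the list of domains by length. The next after Nkx2-1 were Irx5 (15961 bases), Irx2 (14143), Foxa2 (12332), Gata6 (11847), Tnrc18 (11139), Foxp2 (10654), Irs1 (10396), Zfp503 (10238), Rhof with Setd1b (10125), Smad7 (9628) and Irx3 (9524). Irx genes encode Iroquois homeodomain factors, Foxa2 and Foxp2 forkhead factors, and Gata6 a zinc-finger factor of endoderm. Zfp503 encodes a zinc-finger factor, Irs1 an adaptor of insulin signalling, and Setd1b a methyltransferase that itself places H3K4me3. Smad7 encodes an inhibitor of TGF-beta signalling. The domain at Irx5 (chromosome 8, 92350624 to 92366584) was covered over 15961, 15599 and 15680 bases in the 3 H3K4me3 libraries. It held 8, 6 and 8 NKX2-1 peaks, 8 and 4 PRDM16 peaks and 7 PRDM3 peaks. The highest NKX2-1 folds there were 10.9, 4.07 and 5.29, the PRDM16 folds 16.8 and 7.09, and the PRDM3 fold 8.77. At Irx2 (chromosome 13, 72621534 to 72635676) the 3 H3K4me3 libraries covered 14143, 14143 and 13836 bases, and PRDM16 reached folds of 13.4 and 9.45. Foxa2 (chromosome 2, 148034853 to 148047184) was covered over 12077, 12332 and 12109 bases. Its NKX2-1 libraries were uneven, with 4, 1 and 5 peaks and highest folds of 13.5, 3.67 and 3.62. Factor peaks in these domains varied in number and fold from library to library.

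Factor peaks in most of the other long domains described also varied between libraries. At Gata6 (chromosome 18, 11047971 to 11059817) the H3K4me3 libraries covered 11847, 11847 and 11787 bases. NKX2-1 had 5, 2 and 7 peaks there, PRDM16 5 and 3 and PRDM3 5, with highest folds of 7.29, 3.26 and 4.24, then 8.26 and 5.04, and 5.65. At Foxp2 (chromosome 6, 14897728 to 14908381) the highest folds of the 6 libraries were 6.26, 6.51 and 7.99, then 7.88 and 7.37, and 8.94. Smad7 (chromosome 18, 75366404 to 75376031) had the highest H3K4me3 folds of the 12 longest domains in replicate 1, with 43.4, and 74.7 and 76.9 in replicates 2 and 3. Its NKX2-1 folds were 10.9, 6.51 and 5.59 and its PRDM16 folds 12.4 and 9.33. Zfp503 (chromosome 14, 21981698 to 21991935) had a higher PRDM16 fold in replicate 2 (16.0) than in replicate 1 (9.14), against the order seen at Gata6, Smad7 and Irx5. Foxa1 lay under a pair of domains of 8068 and 7791 bases, the second shared with Ttc6, a neighbouring gene. In the first, NKX2-1 had 4, 1 and 2 peaks and PRDM16 3 and 3, and in the second 3, 1 and 2 and 4 and 5. H3K4me3 replicate 1 crossed the gap between them with a single peak, whereas replicates 2 and 3 did not.

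Of 20661 protein-coding genes on these chromosomes, 475 (2.3%) had an annotated end in or within 1 kb of a broad domain, and 57.1% had one at any H3K4me3 region. The gene table gives no strand, so either end counted. A domain had 1 such gene in 329 cases, 2 in 63 and 3 or more in 7. The remaining 66 had none. The lists of genes below were drawn up with earlier results of these data known, and some genes stand in more than 1 list, so their counts describe the set and do not test it.

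Of 41 transcription factor genes of lung epithelium, 22 (53.7%) were at a broad domain and 37 (90.2%) at any H3K4me3 region. Of the 26 domains of at least 8000 bases, 12 were at a gene of this list. Beside those named above they included Prdm16, Nfib, Id2, Irx1 and Foxa1. Sox9 (6436), Cux1 (5570), Cebpa (5486), Foxp1 (5216), Foxp4 (4626), Grhl2 (4619) and Klf4 (4403), all genes of epithelial or lung development, were among those with shorter domains. Klf5 (3927), Tead1 (3534) and Yap1 (3118) lay at shorter regions, and Sox2, the factor of proximal airway, at one of 1152 bases. Hopx, a homeodomain-only protein gene used as an AT1 marker, had a region of 739 bases. No H3K4me3 region met the distance rule at Elf5, Nfia, Rfx3 or Trp63, although a broad domain lay inside Nfia, away from its outer ends. Among members that carried the mark, its length thus ran from 256 bases at Ehf, an epithelial ETS factor gene, to the 21051 bases of Nkx2-1.

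The genes of the profiled PRDM factors were themselves at broad domains. The Prdm16 domain (chromosome 4, 154630925 to 154639953, 9029 bases) was covered over 9029, 8766 and 8964 bases by the H3K4me3 libraries. NKX2-1 had 6, 4 and 4 peaks there, PRDM16 4 and 4, and PRDM3 3. The highest folds were 16.2 and 9.80 for PRDM16, 8.75 for PRDM3, and 5.56, 3.24 and 3.37 for NKX2-1. Mecom carried 2 domains. That at its outer start (chromosome 3, 30505460 to 30511955, 6496 bases) reached PRDM16 folds of 17.2 and 9.67, a PRDM3 fold of 9.54, and NKX2-1 folds of 13.2, 3.15 and 5.29. A further domain of 4882 bases lay inside the gene (30009430 to 30014311), with 0, 3 and 4 NKX2-1 peaks, 3 and 2 PRDM16 peaks and 3 PRDM3 peaks. Here NKX2-1 replicate 1, the library with the most strong peaks, was the one without a peak.

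Signalling genes of lung development were at broad domains in 17 of 33 cases (51.5%), and at any H3K4me3 region in 30. They took in receptors, ligands and feedback inhibitors. The longest after Smad7 (9628) was Fgfr2 (8644 bases, chromosome 7, 130258100 to 130266743), which encodes the epithelial receptor for the branching signal FGF10. The H3K4me3 libraries covered 8644, 8610 and 8549 bases there, and the factor libraries had 5, 2 and 4 (NKX2-1), 4 and 7 (PRDM16) and 3 (PRDM3) peaks. Hes1 (8264), a repressor induced by Notch, and Spry2 (7286), an inhibitor of FGF signalling, followed. Of ligand genes, Fgf9 (6862), Vegfa (6602), Bmp4 (5939), Shh (5832) and Jag1 (4112) were included. Tgfb2, a TGF-beta ligand gene counted without a region at its outer ends, had its start in the promoter table inside a broad domain of 5811 bases. Shh and Foxa1 each carried a pair of adjoining domains, 206 and 216 bases apart. Wnt7b, a Wnt ligand of lung epithelium, had a region of 2989 bases, and no region met the rule at Axin2, a target of Wnt signalling. Feedback inhibitors of different pathways were thus included, with domains of varied length. These were Smad7 and Smad6 (6382) for TGF-beta and BMP, and Spry2, Spry1 (4576) and the phosphatase Dusp6 (6073) for FGF. Spry4, of the same list, lay at a region of 2363 bases.

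Alveolar genes had smaller shares at broad domains than these regulators. The median domain length was 5678 bases for AT2 and 4264.5 for AT1 genes, against 8076.5 for the transcription factors and 6073 for the signalling genes. Of 25 AT2 genes, 8 (32.0%) were at a broad domain and 22 at any H3K4me3 region. The longest were Muc1 (8563 bases), a membrane mucin, Etv5 (7514), a transcription factor that maintains AT2 cells, Slc34a2 (7181), a phosphate transporter, and Sftpc (5853), surfactant protein C. Abca3 (5503), Cebpa (5486), Lpcat1 (4990) and Fasn (4161) completed them. The other surfactant protein genes had shorter regions, of 2003 bases at Sftpa1, 1679 at Sftpb and 175 at Sftpd. At Sftpc (chromosome 14, 70518740 to 70524592, shared with an end of Bmp1) the factor libraries had 2, 0 and 2 NKX2-1 peaks, 2 and 5 PRDM16 peaks and 2 PRDM3 peaks. The highest fold of PRDM16 replicate 1 there was 7.93.

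Of 26 AT1 genes, 6 (23.1%) were at a broad domain and 23 at any H3K4me3 region. They were Vegfa (6602), a growth factor for vessels, Gprc5a (5160), a membrane receptor, Cav1 (4342), the coat protein of caveolae, Emp2 (4187), a membrane protein, Sema3e (4137), a guidance signal, and Pdpn (4011), podoplanin. Gprc5a (chromosome 6, 135065129 to 135070288) had the highest PRDM16 folds of these, 19.3 and 13.7, with NKX2-1 folds of 13.4, 5.53 and 4.04 and a PRDM3 fold of 12.2. Cav1 had exactly 1 peak in each of the 6 factor libraries, with PRDM16 folds of 14.2 and 8.23 and a PRDM3 fold of 10.3. At Pdpn, NKX2-1 replicates 2 and 3 had no peak, so this was 1 of the 2 domains without an NKX2-1 region. In a bulk profile, a domain present in part of the cells cannot be told apart from a weaker one in all of them. Ager (2968) and Aqp5 (1282), later AT1 markers, were at shorter regions. Cldn18, an AT1 tight junction gene, had no region at its outer ends, but a broad domain of 4542 bases lay inside it (chromosome 9, 99705985 to 99710526), with PRDM16 folds of 12.9 and 13.2.

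Junction, chromatin and housekeeping genes had smaller shares again, although nearly all carried the mark. Of 25 epithelial junction and keratin genes, 5 were at a broad domain and 24 at any region. These were the splicing regulators Esrp1 (4846) and Esrp2 (4841), and the tight junction genes Cgn (4781), F11r (4272) and Cldn3 (4098). Epcam, on which the cells were captured, had a region of 3120 bases. Of 31 chromatin regulators, 5 (16.1%) were included, namely Setd1b (10125), the demethylase gene Kdm6b (5675), Arid1b (5383), a subunit of BAF remodelling complexes, the corepressor gene Ctbp2 (4998) and Kmt2d (4711). Of 18 housekeeping genes, 1 (5.56%) was at a broad domain, Actb (4071), and 17 were at any region. Gapdh (3882) and Tbp (3903) lay just under the threshold.

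Genes of other lineages had no broad domain at an annotated outer end. The counts were 0 of 39 Hox genes, 0 of 25 mesenchymal, 0 of 18 endothelial, 0 of 19 immune and blood, 0 of 16 neuron and 0 of 18 liver genes. Any H3K4me3 region was present at 3, 10, 6, 4, 2 and 0 of them. A broad domain of 6570 bases lay inside Runx1, of the immune and blood list, away from its outer ends. The longest regions at outer ends were at Vim (2907), Kdr (2775) and Prox1 (2695). How far cells of these lineages were present in the sorted material was not tested beyond the markers given above.

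**Figure D3:**
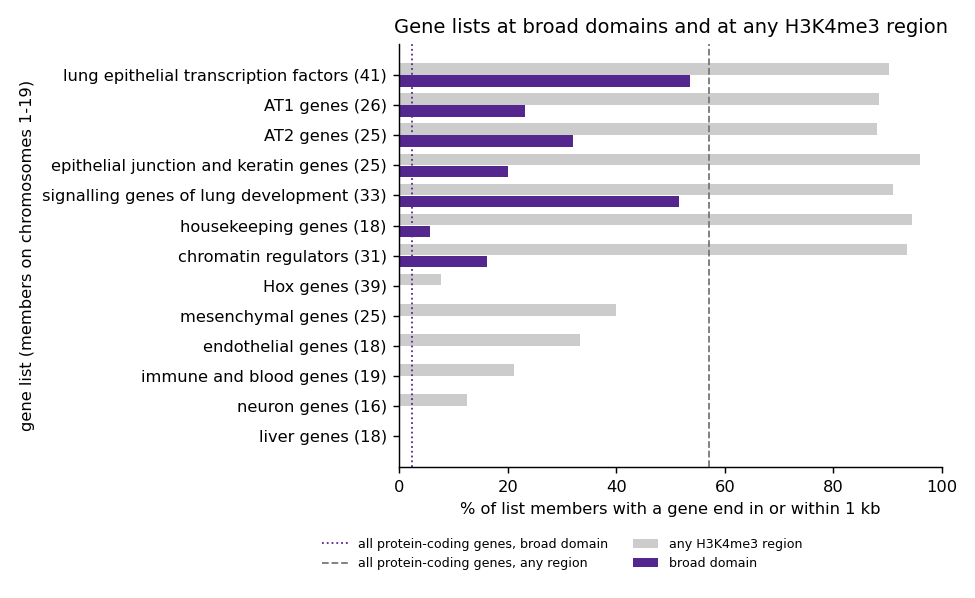
Share of each gene list with an annotated gene end in or within 1 kb of a broad domain (purple) or of any H3K4me3 region (grey), in %; the number of members on chromosomes 1 to 19 is in parentheses and lines mark the shares of all protein-coding genes (2.3% and 57.1%). Lung transcription factor and signalling lists stand at 53.7% and 51.5%, housekeeping genes at 5.56%, and 6 lists of other lineages at 0, since a domain inside a gene is not counted.

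Several gene families stood out when the domain genes were read through, and were chosen after their values were seen. Members at broad domains were 4 of 6 Iroquois genes, 3 of 3 Foxp genes, 2 of 2 inhibitory Smad genes and 3 of 3 Zfp36 genes, which encode proteins that destabilise mRNA. They were also 5 of 8 AP-1 genes (Fosl2, Jun, Atf3, Junb and Fos), which respond rapidly to stimuli, and 5 of 16 Kruppel-like factor genes. Receptor families had 4 of 10 Frizzled genes and 6 of 21 Eph receptor and ephrin genes. Of genes for RNA-binding proteins, 8 of 20 Hnrnp and 2 of 11 Srsf genes were included, and of 78 ribosomal protein genes 1, Rpl7, was. Of these 78, 75 carried some H3K4me3, so this family was marked almost throughout, by regions under 4000 bases.

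Of the 66 domains without an end of a protein-coding gene, 56 lay inside such a gene, 23 had an end of another gene in or within 1 kb, and 1 had neither. The longest was at Malat1 (7770 bases, chromosome 19), a nuclear long noncoding RNA. It held 5, 3 and 6 NKX2-1 peaks, 3 and 3 PRDM16 peaks and 6 PRDM3 peaks. Next came a domain inside Gnas (7503), and then domains inside Runx1 (6570), Ptch1 (6468), the Hedgehog receptor, Nedd4l (6448) and Nr2f2 (6063). The gene table lists only the outer ends of genes, so starts within a gene could not be looked up there. The promoter table places a start of Ptch1 inside its domain, which reached 3150 bases upstream and 3317 bases downstream of it.

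Hairpins of 8 of 919 microRNAs lay inside broad domains, and 95 overlapped any H3K4me3 region. Mature sequences of 5 of these are shown because they give the seeds by which the microRNAs are grouped. They are from RefSeq, with bases 2 to 8, the seed, in capitals.
mmu-miR-200c-3p: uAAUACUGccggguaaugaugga
mmu-miR-141-3p: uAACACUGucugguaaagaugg
mmu-let-7i-5p: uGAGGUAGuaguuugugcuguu
mmu-miR-125b-5p: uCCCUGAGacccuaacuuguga
mmu-miR-92b-3p: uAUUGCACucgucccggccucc
No seed was shared between these 5. miR-200c and miR-141, members of the miR-200 family that maintains epithelial character, lay in a single domain of 4376 bases beside Phb2 and Ptpn6 (chromosome 6, 124716897 to 124721272). This domain had 2, 1 and 1 NKX2-1 peaks and 2 peaks of PRDM16 replicate 1, and no peak of PRDM16 replicate 2 or of PRDM3. The let-7i domain (5054 bases) and the miR-125b-1 domain (4818 bases) had no protein-coding end and had peaks in all 6 factor libraries. miR-92b lay in the Muc1 domain.

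Nearly all broad domains held regions of the 3 profiled proteins. An NKX2-1 region, covered in at least 2 of 3 libraries, lay in 463 of 465 domains (99.6%, Wilson 95% interval 98.4% to 99.9%), against 68.7% of all H3K4me3 regions. A PRDM16 region, covered in both libraries, lay in 457 (98.3%, 96.6% to 99.1%), against 75.6%. A peak of the 1 PRDM3 library lay in 462 (99.4%, 98.1% to 99.8%), against 72.7%. All 3 proteins were found in 455 domains (97.8%, 96.1% to 98.8%), against 53.5%. The intervals cover counting error only. Mid-length regions stood between, with 94.7%, 93.5%, 94.6% and 85.8%. The share moved with length throughout. For NKX2-1 it was 23.6% in H3K4me3 regions under 500 bases, 42.9% from 500, 76.4% from 1000, 93.6% from 2000 and 98.4% from 3000 up to 4000 bases. NKX2-1 regions per kb stayed between 0.506 and 0.599 over these classes and those of the broad domains, whereas PRDM16 regions went from 0.854 per kb in the shortest class to 0.381 in domains of at least 7000 bases. No broad domain lacked all 3 proteins, compared with 1696 (11.7%) of the other regions. A peak in each of the 6 libraries was present in 449 domains, against 39.4% of all H3K4me3 regions. Domains without an NKX2-1 region were those at Pdpn and Npr3. Domains without a PRDM16 region included those at Skida1, Pcdh7, Ctsh, Ccnd2 and Kdm2b.

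These shares depended on which peaks were admitted. With stringent peaks, 89.0%, 11.6% and 24.9% of domains held a peak of the 3 NKX2-1 libraries, 91.0% and 75.7% of the PRDM16 libraries, and 52.3% of PRDM3. The shares in mid-length regions were 77.4%, 8.71% and 14.6%, then 78.4% and 55.1%, and 29.1%. In each of the 6 libraries the broad domains were higher, and the 2 weaker NKX2-1 libraries were far below the other 4. With all peaks, 98.9% ± 1.43 (SD, n = 3) of domains had an NKX2-1 peak and 99.7% ± 0.152 (SD, n = 2) a PRDM16 peak. The difference of −0.824 percentage points was smaller than the spread between the NKX2-1 libraries (exact permutation test, two-sided, p = 0.9, where 3 against 2 libraries cannot go below 0.1). With stringent peaks it became −41.5 percentage points, and with the 20000 top-ranked peaks per library 0.824.

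Peaks inside the domains were numerous but not dense. The median domain held 3 NKX2-1, 2 PRDM16 and 3 PRDM3 regions, and at most 8, 6 and 13. At least 3 NKX2-1 regions were present in 269 domains, 3 PRDM16 regions in 142 and 3 PRDM3 regions in 236. Across the 465 domains, Spearman's rho of length with the number of regions was 0.445, 0.355 and 0.465, and with regions per kb 0.0245, −0.0777 and −0.00276. Longer domains held more regions at about the same density. These correlations are across domains of the same libraries and are given as descriptions.

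Summit density was compared between broad domains and other H3K4me3 regions in the 6 factor libraries, none of which the choice of domains had used. Broad domains held 0.429, 0.442 and 0.513 summits per kb in the NKX2-1 libraries, 0.439 and 0.413 in the PRDM16 libraries, and 0.495 in the PRDM3 library. The other regions held 0.617, 0.423 and 0.517, then 0.637 and 0.596, and 0.558. The log2 ratio averaged −0.29 ± 0.28 (SD, n = 6) and was below 0 in 5 of 6 libraries (exact two-sided sign-flip permutation p = 0.09375, where 0.03125 is the smallest possible). It did not pass the threshold of 0.05. Within the first series it was −0.44 (n = 4) and within the second 0.03 (n = 2), so the lower density was not seen in the second series. Against mid-length regions the mean was −0.13 ± 0.10 (SD, n = 6), below 0 in 6 of 6 libraries (exact sign-flip permutation p = 0.03125). By series this was −0.18 and −0.02. The share of bases under a peak differed less, at 58.1%, 25.7%, 37.7%, 54.3%, 41.3% and 40.6% in broad domains and 60.6%, 25.4%, 35.5%, 56.1%, 41.9% and 39.1% in mid-length regions, in the same order of libraries. Against mid-length regions, summits were thus fewer per kb mainly in the first series, which holds all PRDM libraries, and nearly as dense in the second. The share of bases under a peak was not much smaller in either series. The median fold of peaks in broad domains was 5.05, 3.26, 3.78, 5.66, 4.34 and 4.07, against 5.63, 3.26, 3.78, 6.04, 4.28 and 4.06 in all other regions.

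**Figure D4:**
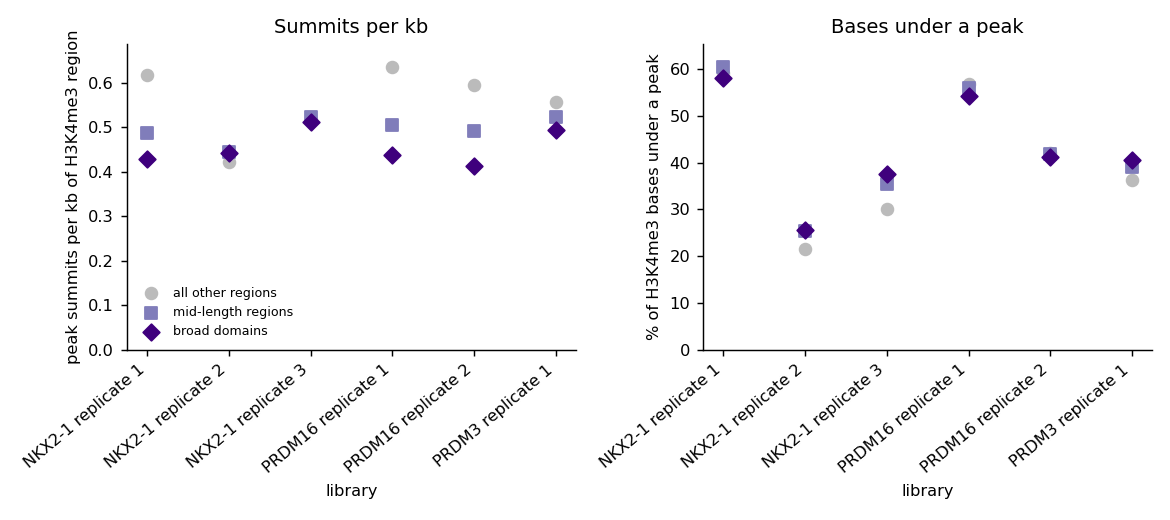
Left, factor peak summits per kb of H3K4me3 region in each of the 6 libraries; right, % of H3K4me3 bases under a factor peak. Diamonds are broad domains, squares mid-length regions and circles all other regions; diamonds lie below squares on the left in each library, by a log2 ratio of −0.01 to −0.26.

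A window of equal length in all regions gave results that turned on where it was placed and on what it was compared with. In the central 1 kb, 87.1%, 66.9% and 85.4% of broad domains had an NKX2-1 peak, 85.4% and 69.2% a PRDM16 peak and 77.0% a PRDM3 peak. The difference from all other regions averaged 5.13 percentage points ± 12.4 (SD, n = 6; exact sign-flip permutation p = 0.375; first series −1.85, second series 19.1). A window of this length reaches beyond regions shorter than 1 kb. Against mid-length regions, where it does not, the difference was −8.35 percentage points and below 0 in 6 of 6 libraries (exact sign-flip permutation p = 0.03125; first series −10.5, second series −4.11). Windows centred on annotated transcription starts were added after seeing these values. There, 95.7%, 81.2% and 89.8% of starts in broad domains had an NKX2-1 peak, 95.9% and 94.6% a PRDM16 peak, and 88.7% a PRDM3 peak. The difference from starts in all other regions was 9.58 percentage points, above 0 in 6 of 6 libraries (exact sign-flip permutation p = 0.03125). From starts in mid-length regions it was 0.327 percentage points (exact sign-flip permutation p = 0.71875). The centre of a broad domain was thus less often under a factor peak than that of a mid-length region, while for starts no difference was detected.

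The domains extended mainly into the gene. Only the most upstream start of each gene in the promoter table was counted, so a domain may hold later starts of the same gene. From a later start the upstream reach would be longer and the downstream reach shorter. Among 230 domains with exactly 1 counted start, the mark reached a median of 1145.5 bases upstream of it (quartiles 739.5 and 1898). Downstream the median was 3486 bases (2939.5 and 4059). The mark was longer downstream in 191 (83.0%). In 1990 mid-length regions the medians were 781.5 and 1738.5 bases, and 88.2% were longer downstream. Of the 230 starts, 20 belonged to genes that are not protein-coding, whose direction may differ from that of a coding gene beside them. With the 210 protein-coding starts alone, a choice made after seeing the data, the medians were 1113.5 and 3561 bases, and 86.7% were longer downstream. In 1876 such mid-length regions they were 768 and 1751.5 bases, and 90.8%. Within 500 bases of the start, the 3 NKX2-1 libraries had 0.774, 0.707 and 0.774 summits per kb, PRDM16 0.761 and 0.805, and PRDM3 0.818. Beyond 1000 bases these were 0.391, 0.367 and 0.455, then 0.417 and 0.355, and 0.443. In each library the density near the start was 1.70 to 2.27 times that farther away. In mid-length regions the corresponding ratio was 2.50 to 3.27. With protein-coding starts alone the ratios were 1.71 to 2.27 in the domains and 2.57 to 3.36 in mid-length regions. Between 28.7% and 35.9% of the summits in these domains lay within 500 bases of the start, so most lay elsewhere, whereas in the shorter regions 56.3% to 65.9% lay there.

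**Figure D5:**
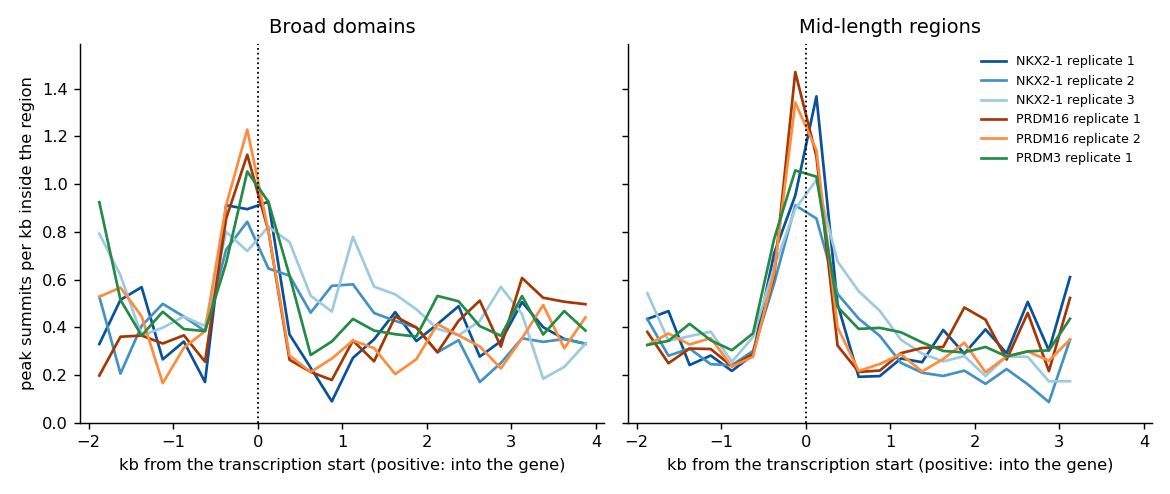
Factor peak summits per kb by distance from the transcription start (positive into the gene), in steps of 0.25 kb. Shown are 230 broad domains (left) and 1990 mid-length regions (right) with 1 start, counting only the most upstream of each gene. Each line is a library; all 6 are highest near the start and stay above 0 over the length of the domains, and single steps vary because each holds few summits.

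Summits were sparser in the outermost 500 bases of the domains than in the next 500 in 6 of 6 libraries. In the outer 500 bases at either edge there were 0.406, 0.256 and 0.299 NKX2-1 summits per kb, 0.415 and 0.366 PRDM16 summits, and 0.387 PRDM3 summits. In the next 500 bases the values were 0.557, 0.458, 0.516, 0.572, 0.544 and 0.609. In the 4 libraries of the first series this second step was the densest of the 4 steps taken, while in NKX2-1 replicates 2 and 3 density was highest farther inside. In the interior, 2000 bases or more from either edge, they were 0.349, 0.481, 0.583, 0.398, 0.347 and 0.497 in the same order. The outer 500 bases were thus denser than the interior in NKX2-1 replicate 1 and both PRDM16 libraries, and sparser in the other 3.

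Domains with the strongest factor peaks were not the longest. By the mean rank of the highest fold over the 6 factor libraries, the leading domains lay at Ppp2r5a (4971 bases), which encodes a regulatory subunit of phosphatase 2A, and at Mpst with Tst (5840), a pair of sulfurtransferase genes. Sin3a (6839), a corepressor scaffold, Fosl2 (7200), an AP-1 factor, Stt3b (4022), a catalytic subunit of oligosaccharyltransferase, and Jarid2 (5468), a partner of Polycomb complex 2, followed. At Ppp2r5a (chromosome 1, 191393152 to 191398122) the highest NKX2-1 folds were 24.1, 10.9 and 7.66, the PRDM16 folds 26.0 and 8.75, and the PRDM3 fold 12.9. At Fosl2 (chromosome 5, 32132646 to 32139845) they were 16.5, 5.10 and 6.39, then 29.8 and 12.8, and 10.2. At Sin3a (chromosome 9, 57071361 to 57078199) they were 14.6, 8.80 and 10.3, then 19.9 and 11.8, and 6.42. Each of these exceeded the values of the same library at Nkx2-1, where the folds lay between 4.88 and 6.91. The Nkx2-1 domain was thus exceptional in length, not in the height of its peaks. Its 13 PRDM3 peaks were the most in any broad domain. Its 9 peaks in NKX2-1 replicate 2 and its 8 and 8 in the PRDM16 libraries also equalled the maximum of those libraries. Its 7 and 7 peaks in NKX2-1 replicates 1 and 3 were below the maximum of 8 in each.

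Promoters in broad domains were rich in CpG, as were other marked promoters. Over 300 bases around the start (250 before and 50 after), 443 promoters in broad domains, 1 per gene, held 25.1 ± 12.3 CpG (SD over promoters). Those in other H3K4me3 regions held 23.7 ± 10.95 (n = 9861), those in mid-length regions 27.0 ± 11.7 (n = 3626), and those without an H3K4me3 region 5.21 (n = 15444). The spread over promoters was far larger than the difference between classes of marked promoters. The Nkx2-1, Foxa2, Irx3 and Mecom windows, of which the first 250 bases are shown above, held 12, 12, 14 and 19 CpG, all below the mean. At Nkx2-1 a peak of 4 of the 6 factor libraries overlapped this window, at Irx3 5, and at Foxa2 and Mecom 3. In all, 216 of the 443 promoters were under a peak of each of the 6 libraries.

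Letters of a TATA box were more frequent in broad domains than in shorter marked regions. TATAAA on the strand of the gene, 45 to 16 bases before the start, stood in 15 of 443 promoters (3.39%, Wilson 95% interval 2.06% to 5.51%). It stood in 0.933% of promoters in other H3K4me3 regions (0.761% to 1.14%), 1.30% in those in mid-length regions (0.976% to 1.72%), and 2.40% of all promoters. Among promoters without an H3K4me3 region it stood in 3.31% (3.04% to 3.60%), close to the share in broad domains. The 15 genes included Muc1, Zfp36l1, Cebpa and Fos, shown above, and Btg1, Tgfb2, Gadd45g, Adamts1, Ccn1 and Srsf2. On both strands of the whole window, TATAAA stood in 10.6% of broad, 5.69% of other marked and 14.2% of all promoters. Motifs searched for NKX2-1 and PRDM3 were not more frequent, and none was searched for PRDM16. CAAGTG, a core of NKX2-1 sites, stood on either strand in 7.90% of promoters in broad domains, 9.63% of those in other H3K4me3 regions and 13.4% of all promoters. CACTCAAG, a separate sequence also searched for NKX2-1, stood in 0.677%, 1.23% and 1.18%. GATAAG, letters of PRDM3 sites that GATA factors share, stood in 3.61%, 3.94% and 7.42%. A match is a description of letters in the window and no site, and only the window at the start was searched, not the rest of the domain.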

How the data were processed

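CUT&RUN peak lists of 3 H3K4me3, 3 NKX2-1, 2 PRDM16 and 1 PRDM3 library were used, and the 3 IgG samples were not analysed here. The submitters' processing notes name mm10 as build and list Trimmomatic, Bowtie2, MACS2 and HOMER with no version. Use of a control in peak calling is not stated in the labels. Peaks were deposited as 1 list per sample. The deposited fold enrichment is a ratio of signal to background made by the authors. The authors also deposited −log10 p and −log10 q values, and the deposited score is derived from them and was not used. The scale of fold differs between libraries, so folds of different libraries listed side by side do not rank binding strength.

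Stretches of at least 20 bases covered in 2 of 3 libraries (both for PRDM16, the peak list for PRDM3) were regions, and those of 4000 bases or more in H3K4me3 were broad domains. A shared base was enough for an overlap. The domains, the gene lists and most comparisons were chosen with earlier results of these data known. Named genes are Nkx2-1, Prdm16 and Mecom, genes at the 12 longest domains, up to 4 genes per list with the longest domains, genes at the 4 domains just over and the 4 regions just under 4000 bases, and genes at the 6 domains with the best mean rank of factor fold. Other names were chosen after their values were seen. The planned naming of domains without any factor peak found none.

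Factor libraries were compared between region classes with exact two-sided sign-flip permutation tests over 6 libraries, and NKX2-1 with PRDM16 by an exact permutation test over libraries. The p-values given were not adjusted for the number of comparisons, and the sign-flip tests cannot go below 0.03125. The coverage rule and the sign-flip test of summit density were tested on simulated data. The permutation test of NKX2-1 with PRDM16 and the window comparisons were not. Gene ends were taken from the RefSeq table for GRCm38.p6, on which mm10 is based. Of the 475 genes at domains, 359 had a start in the promoter table, whose most upstream start per gene was used. Alternatives were other coverage rules, lengths, joining of regions, peak thresholds, windows, distances and leaving out each library. The software was scipy 1.17.1 and numpy 2.4.6 for tests, pandas 2.3.3 for tables and matplotlib 3.10.9 for plots, under Python 3.11.15.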

Additional observations from a re-analysis of the deposited data

How the results depend on the processing

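Of 132 alternative values, 93 were classed as unchanged. Tested differences counted as unchanged when they kept their direction and side of the threshold, and shares when they stayed within their interval. Counts have no interval, and 316 domains with coverage in all 3 H3K4me3 libraries, against 465, were still classed so. The difference between NKX2-1 and PRDM16 was also classed so at −41.5 percentage points with stringent peaks. Lowering the length to 3000 bases gave 1296 domains at 1362 genes, raising it to 5000 gave 175 at 177, and requiring all 3 H3K4me3 libraries left 309 genes. Leaving out 1 H3K4me3 library left 332 to 418 domains at 326 to 426 genes. The lower factor density in broad domains passed the threshold with coverage in all 3 H3K4me3 libraries (−0.33, exact sign-flip permutation p = 0.03125) and against mid-length regions (−0.13, exact permutation p = 0.03125). Without 1 library it was −0.36 to −0.23, and it passed without H3K4me3 replicate 1 (−0.33, exact permutation p = 0.03125). It did not pass in the other 15 alternatives, although with 1 factor library left out it could not. Among these 15 were stringent peaks (−0.30, exact sign-flip permutation p = 0.1875). There the log2 ratio was 0.18 in NKX2-1 replicate 3 and 0.003 in PRDM3, and below 0 in the other libraries. The difference in central windows passed the threshold with stringent peaks, of −log10 q no lower than 5 (7.02 percentage points), with the 20000 strongest peaks (9.54), with windows of 2 kb (14.8) and with windows on starts (9.58), each with an exact permutation p of 0.03125, and it reversed against mid-length regions (−8.35). Without 1 library it was 1.62 to 8.27. The share of domains with an NKX2-1 region was 100% with coverage in all 3 H3K4me3 libraries or lengths of 5000 bases, 91.6% with the 20000 strongest peaks, 28.4% with stringent peaks and 89.9% to 100% without 1 library. For PRDM16 it was 81.7%, 70.3% and 98.1% to 99.8% under the last 3 of these. For PRDM3 it was 100% at 5000 bases, 90.5% with the strongest peaks and 52.3% with stringent peaks. For all 3 proteins it was 95.8% and 98.9% at 3000 and 5000 bases, 71.8% with the strongest peaks, 17.8% with stringent peaks and 88.4% to 98.9% without 1 library. The difference between NKX2-1 and PRDM16 was 0.824 percentage points with the strongest peaks (exact permutation p = 0.8), −1.29 to 0 without 1 library, and −1.18 with the replicate block over numbers 1 and 2, which the labels do not tie to shared material. The causes were not tested. The stringent limit leaves the weaker NKX2-1 libraries with few peaks, and PRDM3 has no replicate. Read depth is unknown, so a missing peak does not show that a protein was absent.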

Other observations

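Broad domains were seldom neighbours. Of all domains, 11 pairs lay within 50 kb of each other and 3 within 10 kb. The closest were the pairs at Shh (206 bases apart), at Foxa1 (216) and at Cdkn1b (2646), a cell cycle inhibitor gene. A cluster of replication-dependent histone genes on chromosome 13 held a pair 33390 bases apart, 1 with H2ac10, H3c8 and H4c8 (7197 bases) and 1 with H2ac7, H2ac8, H2bc7, H2bc8 and H3c4 (6787 bases). Kdm6b carried a domain of 5675 bases at 1 end and one of 4111 bases at the other, and Chd3, a remodeller gene, had another 23617 bases away. Protein-coding genes at broad domains had a median length of 23196 bases, against 17491 for all protein-coding genes.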
